A study of Mus musculus with 18 samples.

Results

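Transcripts of 39 genes that build and run the mitotic spindle and the kinetochore were compared between Fabp4 genotypes of mouse bone marrow cells. The members were a named list of gene symbols, chosen without reference to a threshold on measured values, and all 39 were found by symbol both among the 22017 genes of the in vitro table and among the 13195 genes of the bone marrow table. By role they comprised 4 cyclins and cyclin-dependent kinase genes, 2 mitotic entry kinases, 3 spindle checkpoint genes and 2 partners of the anaphase-promoting complex. The others were 4 genes of the chromosomal passenger complex, 10 of the centromere and kinetochore, 6 kinesins, 6 of spindle assembly and cytokinesis, and 2 of the mitotic chromosome. The last 2, Top2a and Mki67, are general markers of dividing cells rather than parts of the spindle.

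The cells were Fabp4 wild-type (WT), Fabp4 heterozygous knockout (HET) or Fabp4 homozygous knockout (KO), Fabp4 being a gene for a fatty acid binding protein. In the in vitro set, sorted from what the labels call vitro bone marrow, each genotype had 3 libraries. In the bone marrow set, sorted from bone marrow, WT and KO had 3 libraries each and HET had 2 (replicates 1 and 3), HET replicate 2 being not used here. The labels give no drug or other agent, age, sex or strain. They leave unsaid which population was sorted and how cells were cultured, and do not say how the Fabp4 alleles were made or whether a library came from a single mouse. The values were FPKM, fragment numbers scaled for transcript length and for the mapped fragments of the library. Fabp4 itself was listed at 0 to 0.33 FPKM in all 9 in vitro libraries, too low to check the genotypes.

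In dividing cells, Cdk1 bound to a B-type cyclin starts mitosis, and Aurora and Polo-like kinases help to mature the centrosomes and build the spindle. Kinetochores, protein assemblies on centromeric chromatin, hold the spindle microtubules, and the spindle checkpoint keeps the anaphase-promoting complex inactive until every chromosome is attached. Many genes of this machinery are transcribed late in the cell cycle through promoters with a cell cycle homology region (CHR) and CCAAT boxes, bound by the MuvB complex and by NF-Y. In bone marrow such transcripts are known from cycling progenitors and are low in mature neutrophils and in resting stem cells.

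The promoters of the members shared these letters. Of the 39 members, 32 had an entry among the RefSeq promoters of assembly GRCm38.p6, each 300 bases long, from 250 bases before to 50 bases after the start. Aurkb, Ccna2, Incenp, Kif20a, Ska1, Spc24 and Tpx2 had none. The CHR letters, TTTGAA or TTCGAA on either strand, were found in 26 of the 32 (81.2%) and in 21.7% of 27025 genes with a promoter (19.2% of 32851 promoters). CCAAT, on either strand, was found in 25 (78.1%) against 41.1% of genes (37.4% of promoters), and both motifs in 22 (68.8%) against 8.61% of genes (7.52% of promoters). Each motif was counted by itself, and neither contains the other. A CHR within 50 bases of the start was present in 24 (75%) of the members and in 6.12% of genes.

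The next 7 sequences are shown because their 110 bases before the start hold both motifs. Another 2, Birc5 and Ndc80, are shown because their in vitro differences between HET and WT were the lowest. These 2 hold neither motif in that window, and nor do Nuf2, Bub1b, Nusap1 and Anln. A link between motifs and genotype differences was not tested. They run 5′ to 3′ on the gene's strand, with CHR and CCAAT letters of either strand in capitals (TTCAAA and ATTGG are the opposite-strand forms), and end on the base before the start. Ube2c lies at chr2:164769819-164769928 (plus strand), Cdc20 at chr4:118437344-118437453 (minus), Cdk1 at chr10:69352913-69353022 (minus) and Top2a at chr11:99024190-99024299 (minus). Kif11 lies at chr19:37376272-37376381 (plus), Kif22 at chr7:127042421-127042530 (minus) and the Prc1 promoter shown at chr7:80294366-80294475 (plus). Birc5 lies at chr11:117849127-117849236 (plus) and Ndc80 at chr17:71526858-71526967 (minus), all on GRCm38.p6.
Ube2c: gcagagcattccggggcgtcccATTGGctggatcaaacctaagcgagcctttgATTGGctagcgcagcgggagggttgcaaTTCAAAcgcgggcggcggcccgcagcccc
Cdc20: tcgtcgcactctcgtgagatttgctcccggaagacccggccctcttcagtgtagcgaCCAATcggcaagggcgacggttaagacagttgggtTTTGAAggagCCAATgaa
Cdk1: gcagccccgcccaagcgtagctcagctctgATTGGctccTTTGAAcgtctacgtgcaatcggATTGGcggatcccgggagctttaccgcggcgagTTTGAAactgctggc
Top2a: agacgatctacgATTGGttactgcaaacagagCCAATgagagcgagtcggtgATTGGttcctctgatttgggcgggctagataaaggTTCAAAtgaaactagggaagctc
Kif11: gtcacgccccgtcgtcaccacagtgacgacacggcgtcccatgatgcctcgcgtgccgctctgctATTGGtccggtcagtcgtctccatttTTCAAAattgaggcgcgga
Kif22: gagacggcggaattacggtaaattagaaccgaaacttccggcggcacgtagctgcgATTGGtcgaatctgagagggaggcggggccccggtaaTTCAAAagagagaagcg
Prc1: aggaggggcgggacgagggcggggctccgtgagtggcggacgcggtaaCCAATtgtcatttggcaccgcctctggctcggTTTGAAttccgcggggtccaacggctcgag
Birc5: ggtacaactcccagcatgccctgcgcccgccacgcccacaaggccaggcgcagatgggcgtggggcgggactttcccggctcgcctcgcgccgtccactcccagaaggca
Ndc80: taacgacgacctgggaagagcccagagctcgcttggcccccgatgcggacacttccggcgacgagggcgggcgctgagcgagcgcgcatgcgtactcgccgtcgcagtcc
In all 7 of the former a CHR lay 15 to 30 bases before the start, with a CCAAT upstream of it. Positions count the start as 0 and give the motif's first base. The CHR stood at -29 in Ube2c, -18 in Cdc20, -15 in Cdk1, -23 in Top2a, -19 in Kif11, -17 in Kif22 and -30 in Prc1. Cdk1 held another CHR at -71. Ndc80 had CHR letters at 29, after the start and outside the printed window. Birc5, the survivin gene, had neither motif anywhere in its 300 bases. Nor had Nuf2 and Nusap1, whose HET and WT libraries overlapped in vitro. A match describes letters only, and a promoter without one says nothing about the factors that bind there.

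**Figure D1:**
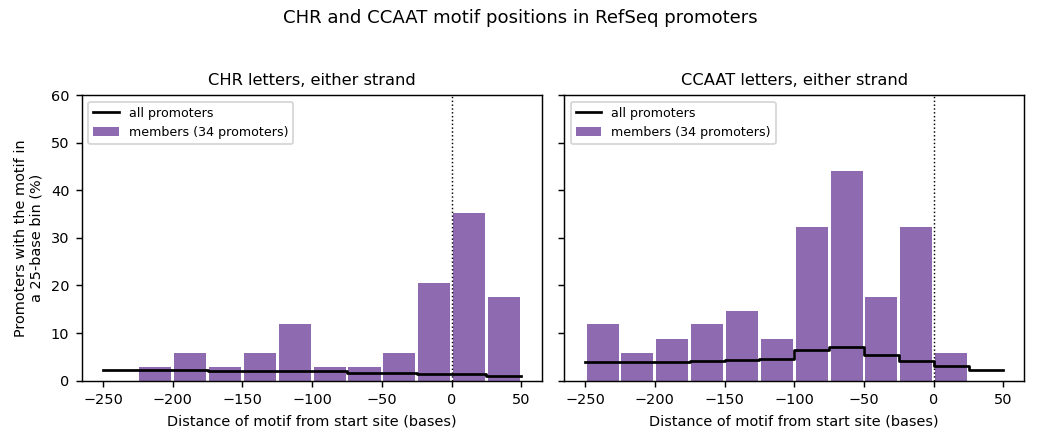
Share of promoters with CHR letters (left) and CCAAT letters (right) in each 25-base bin (percent, y axis) against the distance from the start site in bases (x axis), for the 34 member promoters (bars) and all 32851 promoters (line). Member CHR letters peak in the bins just after (35.3%) and just before (20.6%) the start, where 1.43% and 1.46% of all promoters hold them, and member CCAAT letters peak 75 to 50 bases before it (44.1% against 6.99%).

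The in vitro libraries had an estimated depth of 30.7 to 36.7 M fragments and listed 76.2% to 81.9% of genes above 0. The bone marrow libraries had 3.94 to 35.1 M, with the HET libraries at 3.94 and 11.9 M, and listed 27.5% to 64.6% of genes above 0. As for the labelled tissue, the leukocyte gene Ptprc stood at 39 to 60.2 FPKM in vitro and 47.9 to 88.4 in bone marrow, and the myeloid granule gene Mpo at 1190 to 2070 and 353 to 1070. In vitro, Col1a1 of stroma stayed at or below 0.104 FPKM.

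All 39 members were transcribed in every in vitro library. None of the 351 values was 0 (0 of 351), and they ran from 4.59 to 196 FPKM. Member means ran from 7.46 FPKM for the kinetochore protein gene Cenpf to 174 for Ube2c, with a median of 29.9, against 9.89 for all 10877 tested genes. Levels ranged widely within some roles, from 7.46 to 105 FPKM among the 10 centromere and kinetochore genes, and little within others, from 31.1 to 39.7 for the 2 entry kinases, as the plot of member levels in vitro shows.

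**Figure D2:**
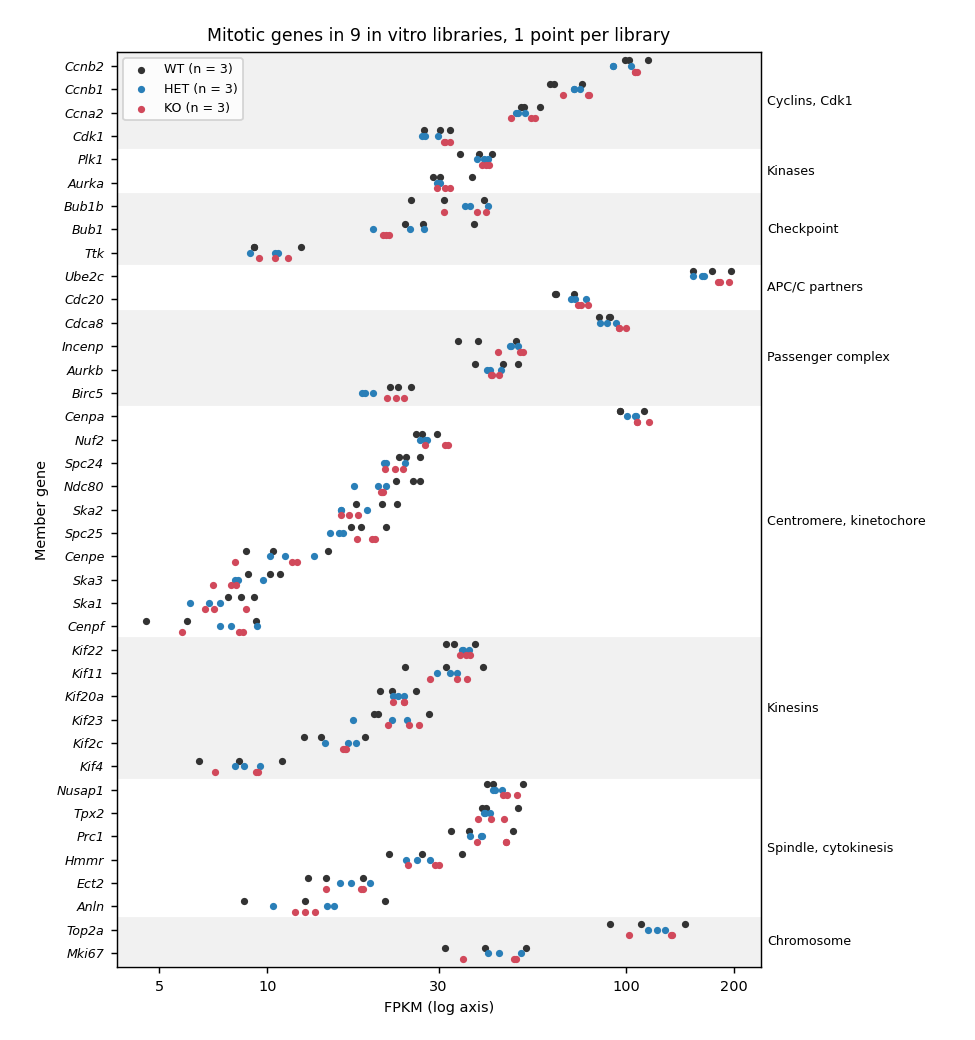
FPKM (x axis, log scale) of each member (y axis, grouped by role) in the 9 in vitro libraries, 1 point per library, coloured by genotype (n = 3 each). The genotypes intermingle for most members, and Ube2c is highest throughout, at 154 to 196 FPKM.

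Among the cyclins, Ccnb2, a B-type cyclin, was the most abundant in vitro, at 102, 99.6 and 115 FPKM in the WT libraries, 92.1, 103 and 91.9 in HET and 106, 108 and 106 in KO. The KO libraries were all above the HET libraries and overlapped WT. Cdk1, the kinase that these cyclins activate, stood at 30.3, 27.3 and 32.3 FPKM in WT, 29.8, 27.0 and 27.5 in HET and 31.3, 32.2 and 31.1 in KO, again with KO above HET without overlap. Ccnb1 and Ccna2 averaged 71.3 and 52.2 FPKM over the 9 libraries. Of the entry kinases, Plk1, the Polo-like kinase, was at 42.4, 34.4 and 39 FPKM in WT, 41.1, 40.2 and 38.4 in HET and 40.7, 39.7 and 41.5 in KO, and the genotypes overlapped.

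Ube2c, the ubiquitin-conjugating enzyme of the anaphase-promoting complex, was at 174, 154 and 196 FPKM in WT, 163, 165 and 154 in HET and 181, 193 and 183 in KO. Its HET libraries all lay below its KO libraries, and WT overlapped both. Cdc20, the activator of the same complex and the target of the checkpoint, was at 71.6, 63.4 and 63.6 FPKM in WT, 77.1, 72.2 and 70.3 in HET and 78.1, 74.9 and 73.6 in KO. All KO values were above all WT values. The most abundant checkpoint gene, Bub1b, which encodes the checkpoint protein BubR1, was at 40.1, 31.0 and 25.1 FPKM in WT, 35.5, 36.8 and 41.1 in HET and 40.8, 31.2 and 38.5 in KO, with overlap throughout.

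The passenger complex carries Aurora B to centromeres and then to the spindle midzone. Its borealin gene Cdca8 was highest, at 89.9, 84.3 and 90.1 FPKM in WT, 93.7, 88.7 and 84.5 in HET and 99.7, 95.7 and 95.7 in KO, so that KO exceeded both other genotypes without overlap. Birc5 was at 23.1, 22.0 and 25.1 FPKM in WT, 18.8, 19.7 and 18.3 in HET and 21.6, 24 and 22.8 in KO. The HET libraries of Birc5 lay below all others. Incenp, the scaffold of the complex, was at 49.3, 38.6 and 34.1 FPKM in WT, 49.97, 47.5 and 47.7 in HET and 51.7, 43.9 and 50.5 in KO, and its WT libraries spread more widely than the rest.

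Of the 10 centromere and kinetochore genes, Cenpa, the centromeric histone H3 variant, was highest, at 96.4, 96.1 and 112 FPKM in WT, 106, 106 and 101 in HET and 116, 107 and 107 in KO. The NDC80 complex, which binds microtubules, has 4 subunit genes, and Ndc80 was at 26.6, 22.8 and 25.4 FPKM in WT, 17.4, 21.4 and 20.4 in HET and 20.8, 21.0 and 20.8 in KO. Both mutant genotypes were below WT without overlap for Ndc80. Its subunit gene Spc25 was at 21.4, 17.1 and 18.3 FPKM in WT, 16.2, 15.8 and 14.9 in HET and 17.8, 19.5 and 19.9 in KO, with HET alone below. The partner genes Nuf2 and Spc24 averaged 28.3 and 23.2 FPKM and overlapped between WT and either mutant. Of the SKA complex, which helps kinetochores to follow shrinking microtubules, Ska3 was at 10.8, 8.85 and 10.1 FPKM in WT, 8.14, 8.30 and 9.73 in HET and 7.07, 7.93 and 8.17 in KO, with KO below WT.

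Among the motors, Kif22, a kinesin that binds chromosome arms, was at 38.0, 33.1 and 31.5 FPKM in WT, 34.9, 35.2 and 36.5 in HET and 36.7, 34.5 and 35.8 in KO. The other 5 kinesins, which slide, bundle or depolymerise microtubules, averaged 8.64 (Kif4) to 32.2 FPKM (Kif11), and none of the 6 separated any genotypes (0 members without overlap). Nusap1, a microtubule-bundling protein of the spindle, led the next role at 51.6, 40.9 and 42.5 FPKM in WT, 43.1, 45.0 and 42.7 in HET and 46.6, 45.3 and 49.8 in KO. Top2a, the topoisomerase that untangles sister chromatids, was at 146, 110 and 90.0 FPKM in WT, 122, 115 and 129 in HET and 135, 102 and 133 in KO, the WT libraries enclosing all others.

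Between KO and WT in vitro, the members differed little. The median log2 difference of FPKM + 1 over the 39 was 0.06, against 0.04 over all 10877 tested genes, and single members ran from -0.42 to 0.27. Single libraries moved this median, to 0.15 without WT 1 and to -0.0041 without WT 3. By limma with Benjamini-Hochberg adjustment over all tested genes 0 of the 39 passed 0.05, where 2.99% of all tested genes did. At unadjusted p under 0.05 there were 6 members (15.4%), against 19.4% of all genes, and 5 members (12.8%) had groups that did not overlap, against 22.9%. The 3 rules use the same values, and whether the members' shares differ from those over all genes was not tested. In bulk RNA, fewer cells in mitosis and less RNA per cell cannot be told apart, here and in the comparisons that follow.

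The largest difference was that of Bub1, the checkpoint kinase gene at chromosome 2 (127800197 to 127831859). It stood at 37.6, 27.1 and 24.1 FPKM in WT and at 21.9, 21.0 and 21.5 in KO, with HET at 19.6, 24.9 and 27.3. The KO libraries were all below WT, by -0.42 ± 0.15 on the log2 scale (SE, limma adjusted p = 0.151), and by -0.24 without WT 1 (adjusted p = 0.249). Ska3 had the smallest p, at -0.32 ± 0.10 (adjusted p = 0.114), and Ndc80 stood at -0.24 ± 0.09 (adjusted p = 0.167). Cdc20 was higher, by 0.19 ± 0.07 (adjusted p = 0.178). Ska2, another SKA subunit, differed by -0.26 (adjusted p = 0.203) and Incenp by 0.27 (adjusted p = 0.233), both with overlapping libraries. Without WT 1, the library in which 26 of the 39 members were highest, Incenp stood at 0.41 and passed (limma adjusted p = 0.0383), and the count was 1, while without WT 3 Incenp stood at 0.15 (adjusted p = 0.51). The 95% intervals of all 39 members lay within a 2-fold difference in either direction, and those of 36 within 1.5-fold. The lowest end of any interval was -0.75 (Bub1) and the highest 0.64 (Cenpf).

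Between HET and WT in vitro, the lowest values belonged to Ndc80, Birc5, Bub1 and Ska1. The median over the 39 members was -0.01 (0.04 over all genes) and turned to 0.06 after rescaling to TPM (0.11 over all genes) and to 0.07 without WT 1. That of the 10 centromere and kinetochore genes was -0.16, the lowest of any role. The medians of the other roles ran from -0.08 (cyclins and Cdk1) to 0.13 (mitotic chromosome). By limma 0 of 39 members passed, where 3.68% of all genes did. At unadjusted p under 0.05 there were 6 (15.4%, against 23.4% of all genes). Groups did not overlap for 4 members (10.3%, against 29.1% of all genes in either direction), all 4 lower in HET. These 4 were Birc5 at -0.29 ± 0.08 (adjusted p = 0.0607), Ndc80 at -0.33 ± 0.09 (adjusted p = 0.0671), Spc25 at -0.25 ± 0.09 (adjusted p = 0.133, and -0.17 without WT 1) and Ska1 at -0.28 ± 0.11 (adjusted p = 0.159, by limma). Ska1, a microtubule-binding SKA subunit, went from 9.19, 7.74 and 8.44 FPKM in WT to 6.10, 7.37 and 6.87 in HET.

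Of the members lower in HET without overlap, Birc5 and Ndc80 lay nearest the threshold. Birc5 passed under 3 of 20 alternatives and Ndc80 under 1 of 20, with limma adjusted p up to 0.179 and 0.194. Spc25 and Ska1 passed under 0 of 20. Birc5 passed after quantile normalization (limma adjusted p = 0.0456) and without KO 2 (adjusted p = 0.0493), and Incenp, higher in HET by 0.26 (adjusted p = 0.203), passed without WT 1 (adjusted p = 0.034) and stood at 0.15 without WT 3. With each library's trend on transcript length removed, an alternative added after the data were seen, Birc5 and Ndc80 passed (limma adjusted p = 0.0336 and 0.033). The 95% intervals of all 39 members lay within 2-fold and those of 37 within 1.5-fold, from -0.61 (Bub1) to 0.75 (Cenpf). In the same libraries, the summed FPKM of 12 monocyte and macrophage markers was 541 to 743 in WT and 1040 to 1240 in HET, all 12 being above 0 in each of these libraries. Its part in the HET values of the members was not tested.

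KO was also set against HET in vitro. The median over the 39 was 0.04, with 0.00 over all genes, 29 members above 0 and 10 below, and turned to -0.01 after rescaling to TPM (-0.05 over all genes). By limma 0 of 39 passed, where 1.99% of all genes did. At unadjusted p under 0.05 there were 3 (7.69%, against 13.2%). Groups did not overlap for 8 (20.5%, near the 22.4% of all genes), all 8 higher in KO. The 22.4% counts both directions. Members were correlated over these libraries, so the 8 are not independent observations. The largest difference was that of Spc25, 0.27 ± 0.09 (limma adjusted p = 0.199), and the smallest p that of Birc5, 0.26 ± 0.08 (adjusted p = 0.142). Ube2c followed at 0.21 ± 0.09 (adjusted p = 0.316). The other 5 were Cdk1 (0.16), Ccnb2 (0.15), Cdca8 (0.13), Nusap1 (0.11) and Cenpa (0.08), with adjusted p from 0.426 to 0.771. The 95% intervals of all 39 lay within 2-fold and of 38 within 1.5-fold. The summed monocyte and macrophage markers were 702 to 1040 in KO. The sums of 13 stem and progenitor genes were 508 to 526 FPKM in WT, 535 to 574 in HET and 561 to 587 in KO. For 13 neutrophil granule genes they were 6000 to 7670 in WT, 7410 to 9900 in HET and 5570 to 9590 in KO. The part of these transcripts was not tested in any of the 3 in vitro comparisons. The KO and HET comparisons with WT share the WT libraries, and KO against HET shares its libraries with both, so the 3 are not independent.

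**Figure D3:**
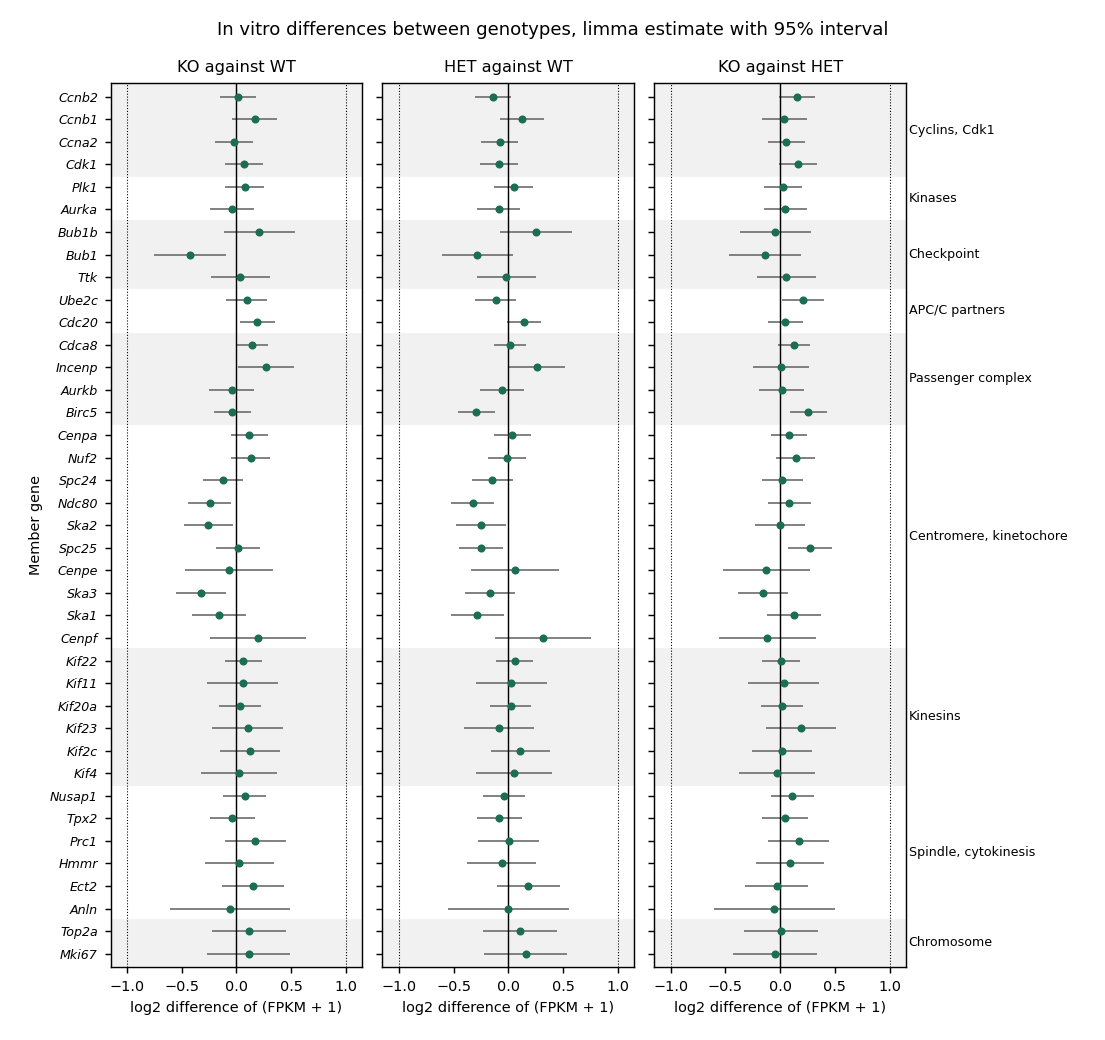
Log2 difference of FPKM + 1 (x axis) for each member in vitro (y axis), limma estimate (point) with 95% interval (line), for KO against WT, HET against WT and KO against HET. Dotted lines mark a 2-fold difference, and no interval reaches them.

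Members with long and with short transcripts varied differently between in vitro libraries of the same genotype. Each member's deviation was taken as its log2(FPKM + 1) minus its mean over the 9 libraries. The median member deviation was 0.23 in WT 1, -0.09 in WT 2 and -0.12 in WT 3, and between -0.07 and 0.08 in the other 6 libraries. In WT 1 both the 13 shortest members, up to 2871 bases, and the 13 longest, from 3847 to 11130 bases, stood high (0.21 and 0.29). In WT 3 the longest were at -0.32 and the shortest at 0.04, and in KO 2 they were at -0.16 and 0.04.

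The same was seen gene by gene. Cenpf, the member with the longest transcript, was at 9.29 FPKM in WT 1 and 4.59 in WT 3, and at 5.79 in KO 2 against 8.35 and 8.53 in KO 1 and KO 3. Cenpe, the kinetochore motor, was at 14.8 and 8.72 FPKM in WT 1 and WT 3. Mki67, which coats mitotic chromosomes, was at 52.4, 40.4 and 31.2 FPKM in WT, 41.3, 44.3 and 50.8 in HET and 49.3, 35.1 and 48.5 in KO. Anln, the contractile ring protein anillin, had the highest coefficient of variation of the 39 (26.5%), from 8.59 FPKM in WT 3 to 21.2 in WT 1. Ccnb2, with the shortest transcript at 1531 bases, instead stood highest in WT 3.

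Across the 39 members, Pearson's r of the deviation with log2 transcript length was -0.63 in WT 3 and -0.73 in KO 2, and 0.66 in HET 3. These describe members of the same libraries, which are not independent. Over all tested genes with a known length (10380, or 95.4%) the values were -0.52, -0.35 and 0.33, so the trend was not limited to mitotic genes. Tested genes with transcripts above 4098 bases had a median deviation of -0.21 in WT 3, -0.10 in KO 2 and 0.09 in HET 3. With the trend removed, the median difference of the members was 0.01 for KO against WT, -0.07 for HET against WT and 0.03 for KO against HET. Without WT 3 and KO 2, also added after the data were seen, 0 members passed limma in any of the 3 comparisons.

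**Figure D4:**
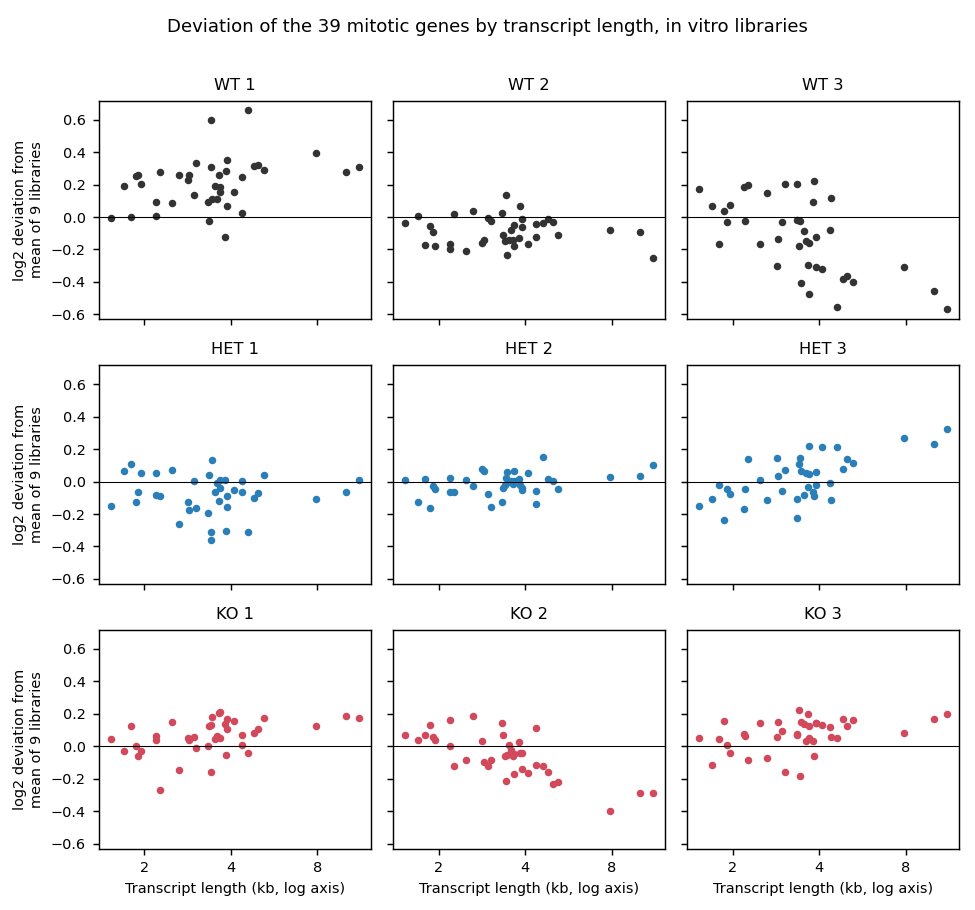
Deviation of each of the 39 members from its mean over the 9 in vitro libraries (y axis, log2 of FPKM + 1) against transcript length in kilobases (x axis, log scale), 1 panel per library. Of the 13 longest members 11 lie below 0 in WT 3, 12 below it in KO 2 and 9 above it in HET 3, while 36 of the 39 members lie above 0 in WT 1.

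Pairs of members were mostly positively correlated over the in vitro libraries. Over the 741 pairs the median Pearson's r across the 9 libraries was 0.38, and 0.47 once group means were removed, and 76.0% of pairs were positive. Over all pairs of tested genes these values were 0.02, 0.02 and 51.7%. Among the 13 longest members the median r was 0.77, among the 13 shortest 0.27, and between the 13 shortest and the 13 longest 0.27. These are descriptions over points that share libraries, depth and the length trend. The median coefficient of variation of the members was 13% in WT, 5.58% in HET and 6.33% in KO, against 11.2%, 7.60% and 8.35% over all tested genes. The members therefore spread slightly more than other genes among WT libraries and less among HET and KO libraries, and the difference itself was not tested. The genes were not matched for level, the median member mean being 29.9 FPKM and that of all tested genes 9.89.

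Of the other genes of the same pathways, taken from 6 lists with 161 tested genes, few passed the test in vitro. Between KO and WT, limma called 0 of 27 tested genes of the anaphase-promoting complex and checkpoint, 0 of 28 of the constitutive centromere and outer kinetochore and 0 of 22 of condensin and cohesin, where 5, 3 and 1 had an unadjusted p under 0.05. It also called 0 of 41 other spindle and midbody genes, 0 of 22 entry and exit kinases and phosphatases and 0 of 21 regulators of mitotic transcription, where 5, 4 and 0 had an unadjusted p under 0.05. The 18 genes with such a p are 11.2% of the 161, beside 19.4% of all tested genes. Between HET and WT 4 of the 161 passed (2.48%), beside 3.68% of all tested genes. Anapc2, a catalytic core subunit of the complex, rose by 0.30 ± 0.07 (adjusted p = 0.0444). The inner kinetochore genes Cenpk and Itgb3bp (also called CENP-R), fell by 0.37 ± 0.09 and 0.48 ± 0.10 on the log2 scale (adjusted p = 0.0409 and 0.0265), and so did the mitotic kinase gene Pbk, by 0.32 ± 0.08 (adjusted p = 0.0495).

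The median HET difference of the 28 constitutive centromere and outer kinetochore genes was -0.09, beside -0.16 for the 10 member kinetochore genes and 0.04 for all genes. These were the lowest medians of the 6 lists and of the member roles. Those of the other lists ran from -0.0028 to 0.05. Of those 28, 2 were called in either direction (7.14%, beside 3.68% of all genes), and 9 had an unadjusted p under 0.05 (32.1%, beside 23.4%). In the other lists the share with such a p ran from 4.55% to 22.7%. Over the 6 lists together it was 26 of 161 (16.1%), below the 23.4% of all genes. The 2 called were lower in HET, while of all genes called 320 were higher and 80 lower. The calls of Cenpk, Anapc2 and Pbk were fragile, since 12, 14 and 14 of 20 alternatives ended them, with adjusted p up to 0.13, 0.133 and 0.156, and 6 of 20 ended that of Itgb3bp (up to 0.108). Leaving out WT 3, HET 1, HET 2 or HET 3 ended the calls of all 4. Those of Cenpk and Anapc2 also ended without WT 2, KO 1 or KO 3, and that of Pbk without WT 1, KO 1 or KO 3. Between KO and HET limma called 0 genes of the 6 lists, and 7 had an unadjusted p under 0.05 (4.35%, beside 13.2% of all genes). Of 26 genes of S phase replication, kept as a comparison, 1 fell between KO and WT, the primase gene Prim1 (log2 difference -0.36 ± 0.09, adjusted p = 0.0491), and 12 of 20 alternatives ended that call (up to 0.21), among them leaving out any of WT 1, WT 2, WT 3, HET 2, HET 3, KO 1 or KO 3. The S phase median was -0.14 for KO against WT, while that of the members was 0.06; the difference was not tested.

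In sorted bone marrow the members were detected unevenly. Of 312 values 76 (24.4%) were listed at 0. WT libraries listed 31, 35 and 32 of the 39 members above 0, HET libraries 14 and 21, and KO libraries 33, 38 and 32. Genes that every cell uses, such as Tbp of the general transcription machinery and the splicing gene Snrpd3, were also listed at 0 in some of these libraries. A 0 is therefore given only as listed, and no group means are given for this set. For comparison, 5684 other genes had an in vitro mean anywhere within the range of the member means, 7.46 to 174 FPKM. Of these, 81.2%, 84.1% and 83.8% were above 0 in WT, 39.8% and 54.7% in HET and 71.1%, 85.7% and 83.0% in KO. The members stood at 79.5%, 89.7% and 82.1%, at 35.9% and 53.8%, and at 84.6%, 97.4% and 82.1%. The low counts in HET were thus shared by these other genes, which were not matched to the members in level or length. The 2 HET libraries had the lowest estimated depth.

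Ccnb2, Cdk1, Ube2c, Incenp, Cdca8, Cenpa and Top2a, 7 members in all, were above 0 in all 8 bone marrow libraries. Ttk, Ndc80, Kif20a, Kif4, Ska3, Ect2 and Anln were at 0 in 4 or more. Ccnb2 had the highest mean and stood at 100, 137 and 208 FPKM in WT, 92.3 and 267 in HET and 52.6, 95.3 and 87.7 in KO. Its KO libraries were all below WT. Cdca8 came next, at 4.72, 67.5 and 119 FPKM in WT, 295 and 100 in HET and 198, 66.0 and 134 in KO. Ube2c was at 79.4, 42.8 and 104 FPKM in WT, 195 and 161 in HET and 69.0, 159 and 155 in KO, HET being above both other genotypes.

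The leading members of the other roles varied too. Bub1b was at 11.2, 2.20 and 1.88 FPKM in WT, 0 in both HET libraries, and 16.4, 11 and 18.4 in KO. Cenpa was at 7.96, 69.8 and 86.0 FPKM in WT, 0.147 and 167 in HET and 51.5, 66.4 and 47.1 in KO. Top2a varied least of these, at 21.5, 22.6 and 51.6 FPKM in WT, 19.0 and 31.5 in HET and 23.4, 32.3 and 58.6 in KO. Kif22 was at 7.18, 0.0170 and 18.1 FPKM in WT, 0 and 72.5 in HET and 0.0537, 0.310 and 45.7 in KO. Nusap1 was at 117, 0.133 and 1.58 FPKM in WT, 0 and 14.6 in HET and 96.2, 0.617 and 0 in KO, so libraries of each genotype differed by far more than the genotypes did. The order of the members by mean level resembled that in vitro, with a Spearman's rho of 0.661 over the 39 members and 0.683 over 6915 genes tested in both tables. This rho is a description, since the genes share libraries. The 39 include Ttk, Ndc80, Kif4 and Anln, which unlike the 6915 were not tested in bone marrow. The bone marrow means include values listed at 0.

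**Figure D5:**
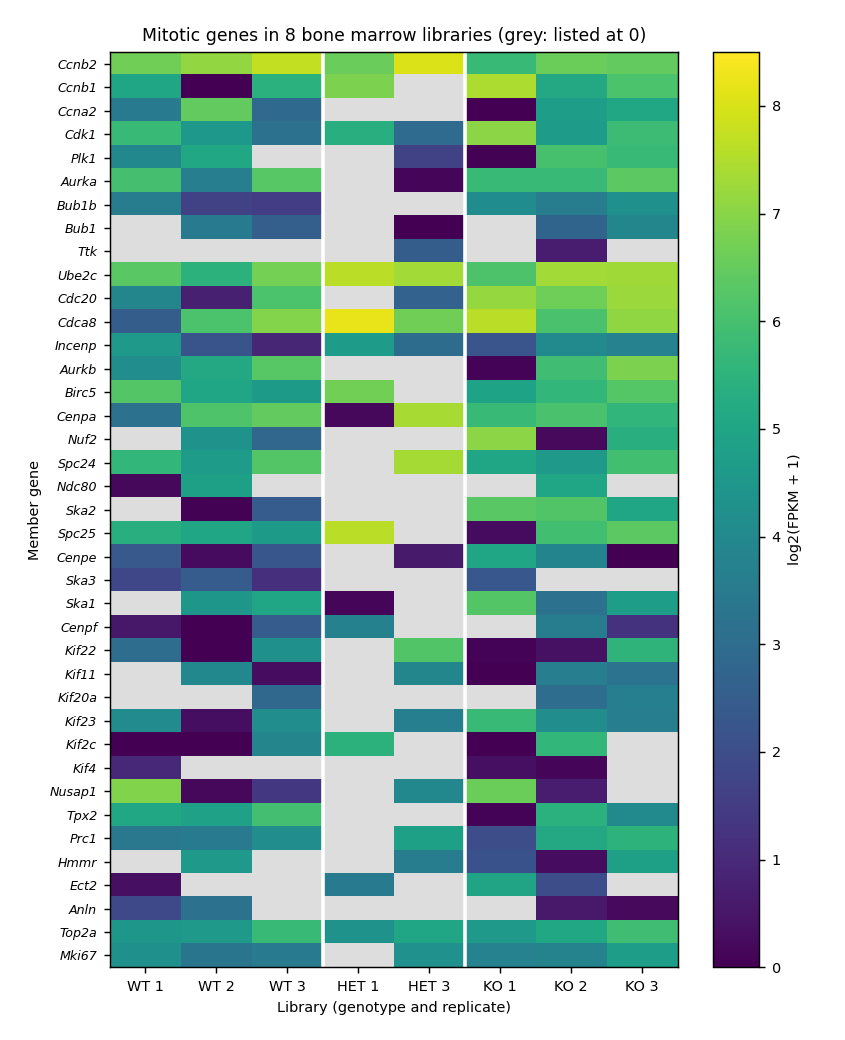
Log2(FPKM + 1) of each member (rows) in the 8 bone marrow libraries (columns, by genotype), with values listed at 0 in grey. The HET 1 and HET 3 columns hold the most grey cells, 25 and 18 of 39.

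Of the 39 members 35 passed the filter on low values in bone marrow (FPKM of at least 1 in at least 3 of the 8 libraries). Ttk, Ndc80, Kif4 and Anln did not. Between KO and WT, limma passed 0 of the 35, where it passed 0% of all 7246 tested genes. At unadjusted p under 0.05 there were 2 (5.71%, against 5.11% of all genes), and 3 had no overlap (8.57%, against 12.3%). The median of the 35 was 0.64 and that of all genes -0.18, with 26 members above 0 and 9 below. The members' median was 1.05 without KO 1 and 0.42 without WT 1, WT 2 or KO 2.

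The 2 with the smallest p were Ska2 and Cdc20. Ska2 was at 0, 0.0287 and 4.51 FPKM in WT, 0 in both HET libraries and 80.0, 71.5 and 31.2 in KO. All KO values were above all others, and the log2 difference from WT was 5.01 ± 1.32 (SE, limma adjusted p = 0.452). Cdc20 was at 13.9, 0.673 and 66.6 FPKM in WT, 0 and 5.39 in HET and 140, 98.6 and 147 in KO, again without overlap (3.42 ± 1.52, limma adjusted p = 0.952, and 2.01 without WT 2). Cdc20 was also higher in KO in vitro, by 0.19, whereas Ska2 was lower there, by -0.26; neither passed the test in either set.

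Between HET and WT in bone marrow, 0 of 35 members passed limma, where 0.262% of all genes did. At unadjusted p under 0.05 there were 4 (11.4%, against 12.4% of all genes), and 7 had no overlap (20%, against 30.1%), 6 of them lower in HET and Ube2c higher. The lowest differences, those of Tpx2, Aurka and Aurkb, rest on values listed at or near 0 in both HET libraries. Aurka was at 63.2, 11.3 and 77.2 FPKM in WT, 0 and 0.0764 in HET and 53.4, 51.5 and 80.5 in KO. Its HET libraries were below all others (log2 difference from WT -5.25 ± 1.38, limma adjusted p = 0.184). Tpx2, which activates Aurora A on the spindle, was at 32.4, 28.4 and 61.3 FPKM in WT, 0 in both HET libraries and 0.0557, 42.0 and 15.4 in KO (HET against WT -5.30 ± 1.72, adjusted p = 0.237).

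Aurkb, the kinase of the passenger complex, was at 17.2, 34.0 and 78 FPKM in WT and at 0 in both HET libraries (-5.21, limma adjusted p = 0.295). Ccna2 was likewise listed at 0 in both HET libraries. The median over the 35 was -1.17, beside -0.99 for all tested genes, and after quantile normalization it was 0.05, beside -0.03. With a pseudocount of 0.1 the medians were -2.50 for the members and -1.93 for all genes, and after rescaling to TPM -1.58 and -1.23. The members' median was above that of all genes only after quantile normalization and for genes above 0 in every library (0.14 beside -0.01). The part of depth was not tested. Without HET 3, Aurka and the NDC80 subunit gene Spc24 passed limma (lowest adjusted p = 0.0351), as did 323 of 6958 tested genes, with a single HET library whose spread was assumed to be that of the other groups. Spc24 was at 47.9, 24.99 and 73.2 FPKM in WT, 0 in HET 1 and 164 in HET 3, and 31.7, 22.5 and 60.1 in KO. The HET libraries stood at either end, and the log2 difference from WT was -1.82 with both, -5.51 without HET 3 and 1.86 without HET 1.

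Between KO and HET in bone marrow, 0 of 35 members passed limma, where 0.166% of all genes did. At unadjusted p under 0.05 there were 5 (14.3%, against 11.3%), and 10 had no overlap (28.6%, against 27.9% of all genes), 9 of them higher in KO. Aurka differed by 5.89 ± 1.38 (limma adjusted p = 0.12), Ska2 by 5.84 (0.138), Cdc20 by 5.66 (0.207), Ska1 by 4.65 (0.347) and Bub1b by 4.0 (0.299). These sizes rest on HET values listed at or near 0, except 5.39 FPKM for Cdc20 in HET 3. With a pseudocount of 0.1, Ska2 stood at 9.14, Ska1 at 7.48 and Bub1b at 7.23. The median over the 35 was 1.95, with 0.83 over all genes, and 0.82 after quantile normalization, with 0.01 over all genes. Without HET 3, Aurka and Spc24 passed (lowest limma adjusted p = 0.0273), and without HET 1 the Spc24 difference turned from 1.49 to -2.20. For the genes above 0 in every library, an alternative added after the data were seen, the median of the 7 members was -0.50, and for HET against WT it was 0.14.

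Of the 122 pathway genes tested in bone marrow, limma called 0 in any comparison. An unadjusted p under 0.05 was reached by 4 for KO against WT (3.28%, beside 5.11% of all genes), 11 for HET against WT (9.02%, beside 12.4%) and 12 for KO against HET (9.84%, beside 11.3%).

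The bone marrow test had little precision for these genes. The median SE of the tested members was 1.54 for KO against WT and 1.72 for the comparisons with HET, while in vitro it was 0.0946. The 95% intervals reached from -9.49 (Aurkb, HET against WT) to 9.36 (Cdc20, KO against HET), and 0 of the 35 lay within 2-fold in any comparison. Values above 0 that equal at most 3 fragments at the estimated depth were found for 1, 4 and 0 members in WT, 2 and 2 in HET and 6, 0 and 1 in KO. The cells also differed in other transcripts. The summed FPKM of 13 neutrophil granule genes was 7550 to 57600 in WT, 132000 to 133000 in HET and 138000 to 213000 in KO, with 9 to 13 of them above 0 in WT, 10 in each HET library and 12 or 13 in KO. The part of these transcripts, and of depth, in the members' values was not tested.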

How the data were processed

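RNA of 18 samples in 6 groups is described in the labels, and 9 in vitro and 8 bone marrow libraries were analysed. The authors deposited FPKM values per gene in a table for each set, per the file headers. Per the submitters' processing notes the genome was mm10. The aligner, counter and annotation were not given in the sources used here. FPKM hold no counts, depend on how much of a library its most abundant transcripts take, and may have been scaled separately for the 2 tables, so genotypes were compared within a table.

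Genes that reached 1 FPKM in 3 or more libraries were tested with limma 3.58.1 (R 4.3.3, statmod 1.5.0) after log2(FPKM + 1), using intensity-trended, robust moderation, 1 mean per genotype, all libraries of a table in a fit, and Benjamini-Hochberg adjustment over all tested genes (threshold 0.05). This scale understates differences of genes with low values. The p-values reflect only how these libraries spread, which may be technical. Depth was estimated from low values of single-exon genes, as the depth that best placed them on whole-fragment steps. At that depth 81.8% to 92.6% of them lay within 0.1 of a whole step. The search itself favoured a high share, so this share is no check of the estimate. Each estimate rested on 22 to 46 values in bone marrow and 70 to 108 in vitro. Depth entered no test. Transcript length was that of the longest GENCODE transcript. Promoters came from RefSeq (GRCm38.p6) and were searched with Python 3.11.15. The test was tried on simulated data before use.

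The members, gene lists and tests were chosen with earlier results of these data known. By the naming rule, values in every library were given for members called, for the highest member of each role in each table and for the member with the largest difference in each comparison. Members named beyond this rule (Birc5, Incenp, Cdc20, Ska1, Ska3, Cdk1, Cenpf, Cenpe, Mki67, Anln, Aurkb, Spc24 and others at unadjusted p under 0.05 or without overlap) were chosen after their values were seen. Alternatives tried were quantile normalization, TPM, median-ratio size factors, a pseudocount of 0.1, a stricter filter (FPKM of 5) or nearly none, a replicate block, only the compared groups and leaving out each library. Removing the length trend (lowess with a span of 0.3), leaving out WT 3 with KO 2, plain limma moderation, and only genes above 0 in all bone marrow libraries were added after the data were seen.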

Additional observations from a re-analysis of the deposited data

Results flagged for a closer look

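Ube2c, the ubiquitin-conjugating enzyme gene of the anaphase-promoting complex, went opposite ways in the 2 sets when KO was set against HET. In vitro all 3 KO libraries were above all 3 HET libraries, with a log2 difference of 0.21. In bone marrow all 3 KO libraries were below both HET libraries, with a log2 difference of -0.56, and of -0.17 without KO 1. It was picked out because the groups did not overlap in either set and the directions were opposite. Neither difference passed limma (adjusted p = 0.316 and 0.748), and the difference between the sets was not tested.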

How the results depend on the processing

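Among members called under any setting, without overlap or at unadjusted p under 0.05, and called pathway genes, 1 gene reversed, Spc24 in bone marrow without HET 1, to 1.86 (HET against WT) and -2.20 (KO against HET), against -5.51 and 5.17 without HET 3. Medians over the members changed sign under some settings. The count of members called was 0 as reported in all 6 comparisons. In vitro, HET against WT gave 1 member after quantile normalization (Birc5) and 2 with the length trend removed (Birc5 and Ndc80, the latter at -0.40). Leaving out a library gave counts from 0 to 1 for KO against WT and for HET against WT in vitro, and from 0 to 2 for HET against WT and for KO against HET in bone marrow. The cause was not tested. All other alternatives gave 0 members. Leaving out 1 library in vitro gave member medians of -0.0041 to 0.15 for KO against WT, -0.07 to 0.07 for HET against WT and 0.01 to 0.09 for KO against HET. In bone marrow the median difference of the tested members moved with scaling and with values at 0. For HET against WT it was -1.17 as reported, -2.50 with a pseudocount of 0.1, 0.05 after quantile normalization, 0.14 for genes above 0 in every library and -1.82 without HET 3. For KO against HET it was 1.95 as reported, and 3.33, 0.82 and -0.50 under the former 3. Quantile normalization moved the median of all genes from -0.99 to -0.03 for HET against WT and from 0.83 to 0.01 for KO against HET. A replicate block gave 0 members in all 6 comparisons, and 172, 234 and 160 genes in all in vitro instead of 325, 400 and 216. Deviations of libraries with the same replicate number correlated at -0.30 to 0.18 in vitro and -0.02 to 0.03 in bone marrow, so the numbers were not taken to pair the samples. In bone marrow HET rests on 2 libraries of an estimated 3.94 and 11.9 M fragments, which limits its precision.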
